A study of Mus musculus with 18 samples.

Results

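The ileum of iPgc1α-/- mice fed a Western diet (WD) was compared with that of Pgc1α fl/fl mice fed chow, a contrast in which diet and genotype change together. It used 12 of the 18 arrays of the series, namely the 6 labelled iPGC1a-/- with HFD and the 6 labelled iPGC1afl/fl with CHOW, at 1 mouse per array. The diet that the labels call HFD is the WD of the study, in which milk fat gives 42% of the energy and cholesterol makes up 0.2%. All mice were of a C57BL6/J background and carried floxed Pgc1α alleles. iPgc1α-/- mice also carried Vil1-Cre, in which the villin promoter drives Cre recombinase in the intestinal epithelium and thereby removes exons 3, 4 and 5, so that cells of other lineages keep the intact gene. Diets began at 8 weeks of age and lasted 8 weeks, and the mice were killed fasted at ZT3. Cells were released from the opened ileum by repeated shaking in a citrate buffer that chelates calcium (a modified Weiser method), and their RNA was labelled with Cy3. The remaining 6 arrays, of Pgc1α fl/fl mice on WD, contributed to the estimate of the spread. They also allowed the diet step (Pgc1α fl/fl on WD minus chow) and the genotype step (iPgc1α-/- minus Pgc1α fl/fl, both on WD) to be read beside each gene, although the 3 contrasts share arrays.

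Pgc1α, the product of Ppargc1a, is a coactivator that binds nuclear receptors and other transcription factors and is best known for driving mitochondrial biogenesis, oxidative phosphorylation and fatty acid oxidation. The ileal epithelium absorbs residual lipid, packs it into chylomicrons, recovers bile acids and sends the hormone Fgf15 to the liver. It also lies next to a dense microbiota, to which it answers with antimicrobial proteins and antigen presentation, and it keeps a circadian clock that feeding can shift.

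On each array, 56.3% to 62.3% of spots other than controls exceeded background by the scanner's own test, and precision was limited by the number of arrays. After the filter on dim probes, 32726 probes with 21542 gene names remained, and values below are log2 normalised signals. A probe was called when limma gave it an adjusted p (Benjamini-Hochberg) of at most 0.05 and its fold change exceeded 1.5, a gene was called when any of its probes was, and the value given for a gene is that of its brightest probe. Levels are compared between groups for the same probe only. Some arrays stood apart. Replicates 2 and 3 of Pgc1α fl/fl on WD differed by less than any other pair of their group (median absolute deviation of the log2 difference 0.123, next closest pair 0.175), and averaging them as 1 array gave 1243 genes higher and 1626 lower in the present contrast. Chow replicate 4 had the lowest level of the brush-border genes and the highest of the ribosome biogenesis and DNA replication genes. Without it, 1134 genes were higher and 1499 lower. The 15 measured markers of epithelium and enterocytes averaged between 15.38 and 15.61 on the chow arrays and between 15.49 and 15.74 on those of iPgc1α-/- on WD. The 7 ileal markers, among them Fgf15 and the bile acid transporter gene Slc10a2, averaged 13.11 to 13.72 and 13.28 to 14.01. Markers of the labelled tissue were thus measured in both groups, but there was no other gut segment to compare them with.

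Ppargc1a was examined first, since it is the targeted gene. The chow arrays lay between 10.10 and 11.25 (median 11.17) and the arrays labelled iPgc1α-/- on WD between 11.36 and 12.01 (median 11.63). All 6 arrays of the labelled knockout were thus above all 6 chow arrays. The log2 fold change was 0.74 (standard error 0.162, limma adjusted p = 0.00162), and a two-sided exact permutation test over the 924 divisions of the 12 mice gave p = 0.00216, the smallest it can give. The second probe rose by 0.87 (standard error 0.161, adjusted p = 0.000368). The diet step at the brighter probe was 0.44 and the genotype step 0.30, neither past the threshold (adjusted p = 0.0556 and 0.572). The difference was 0.46, 0.31 and 1.44 within slides 1, 2 and 3, and 0.57 without chow replicate 4, which is under the 1.5-fold limit. The sequence of the second probe, from the array files on mm9, is shown because it tells which end of the transcript was read, with the stop codon in capitals:
Ppargc1a probe, chr5:51849419-51849478, minus strand: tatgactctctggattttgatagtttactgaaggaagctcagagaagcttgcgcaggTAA
It holds an open frame of 19 sense codons that closes at its last 3 bases, so it read the end of the coding sequence. The brighter probe (chr5:51848928-51848987, minus strand) lies further 3′. Both lie outside the deleted exons, so neither checks the deletion, and directions below are those of the arrays as labelled.

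Of 21542 genes, 2868 were called (13.3%), with 1243 higher (5.77%) and 1631 lower (7.57%), including 6 with probes in both directions. A change above 2-fold was seen for 410 genes higher and 493 lower, and above 4-fold for 49 and 40. The median log2 fold change of all genes was -0.01, with a median standard error of 0.104. At the brightest probe 2542 genes were called, and the arrays of the groups did not overlap for 1829 of them. Over all genes, called or not, the groups did not overlap for 16.2%. The 1065 genes that rose at the brightest probe had a median change of 0.83, beside a median diet step of 0.65 and a median genotype step of 0.20. For the 1477 that fell, the medians were -0.82, -0.75 and -0.08. Within slides 1, 2 and 3, 904, 855 and 838 of the 1065 rose by more than 1.5-fold, and 1226, 1185 and 1169 of the 1477 fell by more than that. These genes were called on the same arrays, so these counts are partly set by that choice and are no separate test.

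**Figure D1:**
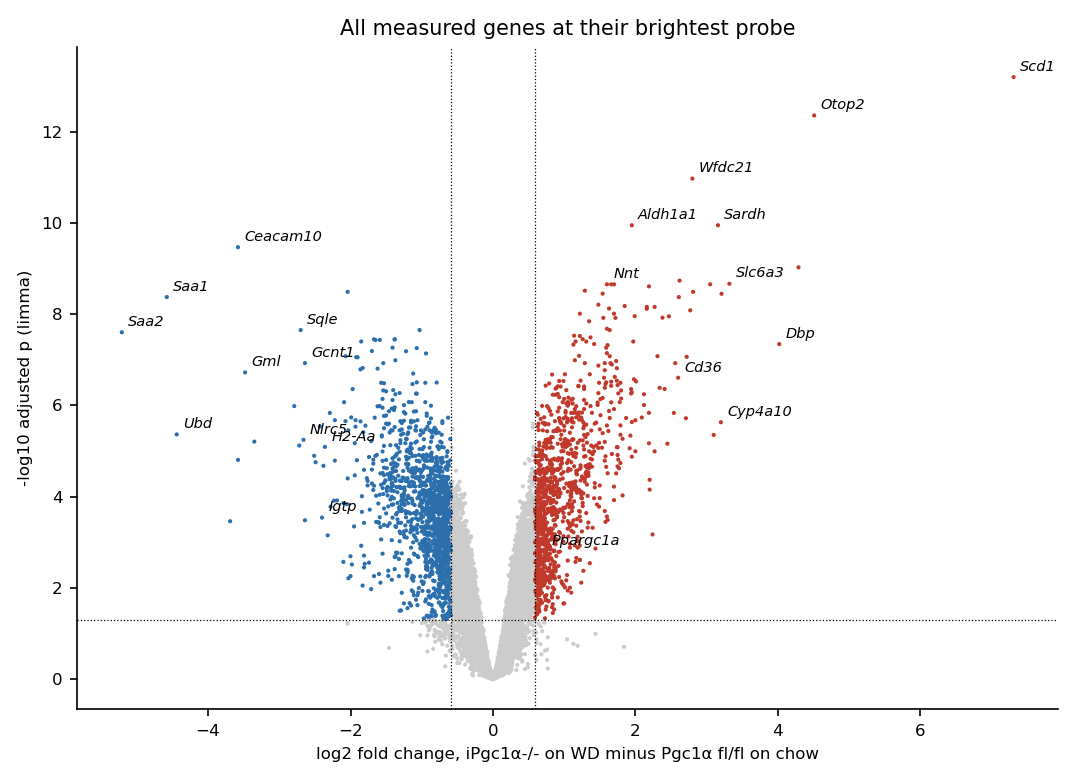
Each point is a gene at its brightest probe, with the log2 fold change of iPgc1α-/- on WD minus Pgc1α fl/fl on chow on the x axis and -log10 of the limma adjusted p on the y axis; red points were called higher, blue points lower, and dotted lines mark a 1.5-fold change and an adjusted p of 0.05. Scd1 stands farthest right at 7.31 and Saa2 farthest left at -5.21.

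The pathway lists differed in how many of their members passed the test. Apart from the genes that the study itself measured, the circadian clock, xenobiotic enzymes, peroxisomal fatty acid oxidation, cholesterol transport and chylomicron lists held the highest shares of genes that rose, from 43.3% to 61.1%. Among these pathway lists, MHC class II, cholesterol synthesis, microbiota-induced defence and the interferon response held the highest shares that fell, from 66.0% to 81.8%. At an unadjusted p under 0.05, a threshold used below beside counts of 0, 21.6% of all genes were higher and 25.2% lower.

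**Figure D2:**
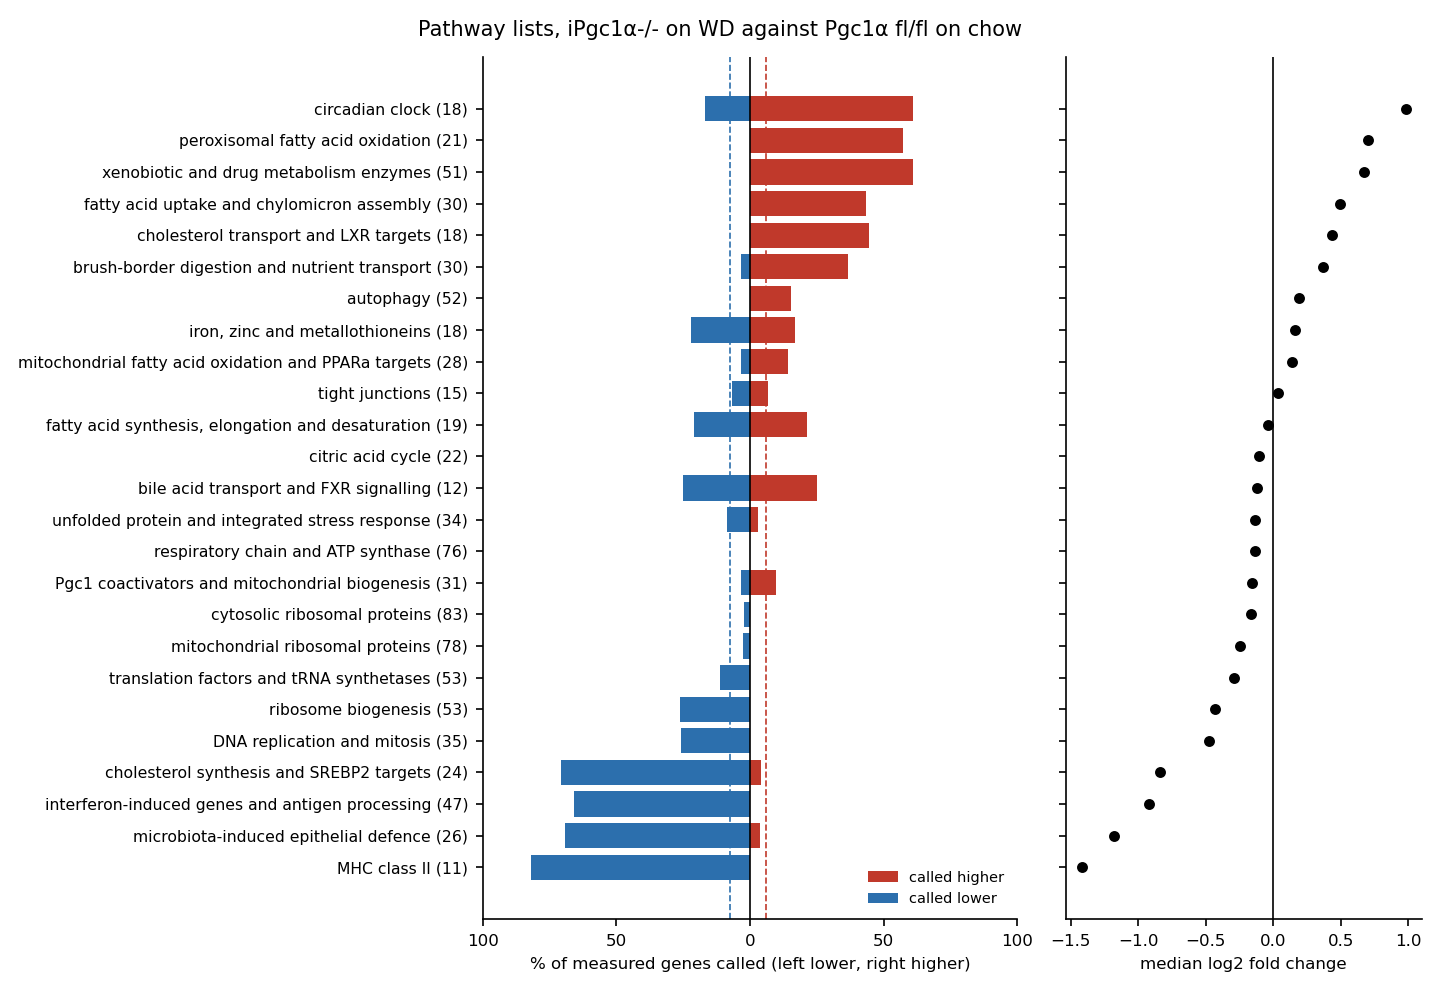
For each pathway list (number of measured genes in parentheses), the left panel gives the percentage of genes called higher (red, right) and lower (blue, left) in iPgc1α-/- mice on WD relative to chow-fed Pgc1α fl/fl mice, with dashed lines at the shares over all genes (5.77% and 7.57%), and the right panel gives the median log2 fold change at the brightest probes. The circadian clock list has the highest median (0.98) and MHC class II the lowest (-1.42).

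The largest rise of any measured gene was in fatty acid desaturation. Scd1 encodes stearoyl-CoA desaturase, which makes monounsaturated fatty acids, and its signal was between 5.55 and 7.04 (median 6.08) on chow and between 12.67 and 14.11 (median 13.38) in iPgc1α-/- on WD. The groups did not overlap, and the rise was 7.31 on the log2 scale, or 158-fold (standard error 0.236, adjusted p = 6.38e-14). Of this, 6.14 was present in the diet step, and the genotype step of 1.16 also passed the test (adjusted p = 0.045). The related desaturase gene Scd2 lay between 6.76 and 9.10 (median 8.37) on chow and between 10.21 and 11.32 (median 10.91) in iPgc1α-/- on WD, again without overlap, a rise of 2.71. Me1, the cytosolic malic enzyme that supplies NADPH, rose by 1.92, and Srebf1, which encodes the lipogenic factor SREBP1, by 1.70. Some synthesis and elongation enzymes went the other way. Acacb, an acetyl-CoA carboxylase, fell by 1.41, Elovl6, which elongates palmitate, fell by 1.01, Fasn, the fatty acid synthase, fell by 0.74 and the mitochondrial malonyl transferase Mcat fell by 0.63. The list of 19 genes thus held 4 that rose and 4 that fell (2 with the probes of a gene averaged), with a median of -0.04.

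Fatty acid uptake and chylomicron assembly moved towards higher signal. Of 30 genes, 13 rose and 0 fell, and the median was 0.49. At an unadjusted p under 0.05 in limma, 20 were higher and 0 lower. Cd36, a fatty acid translocase, was between 6.28 and 8.37 (median 7.76) on chow and between 9.58 and 10.57 (median 10.34) in iPgc1α-/- on WD. Its groups did not overlap, and the change was 2.6 (standard error 0.244, adjusted p = 2.49e-07). Apoc2, the apolipoprotein cofactor of lipoprotein lipase, rose by 1.62, the chylomicron protein gene Apoa4 by 1.33, the fatty acid binding protein gene Fabp1 by 1.17 and the fatty acid transport protein gene Slc27a4 by 0.67. Mttp, whose product loads lipid onto apolipoprotein B, was at 0.34 (adjusted p = 0.0269) and under the fold limit. Without chow replicate 4, 11 of the 30 genes rose.

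Cholesterol synthesis fell as a group, with 17 of 24 genes lower and a median of -0.84. Sqle, the squalene epoxidase, lay between 11.93 and 13.20 (median 12.65) on chow and between 9.35 and 10.66 (median 9.88) in iPgc1α-/- on WD. These ranges did not meet, and Sqle fell by 2.70 (standard error 0.209, adjusted p = 2.24e-08). Fdft1, which makes squalene, fell by 2.07, the synthase gene Hmgcs1 fell by 1.86 and the lanosterol demethylase gene Cyp51 fell by 1.85. The gene called higher was Sc5d, through a probe other than its brightest. Genes of cholesterol transport, many of them targets of the oxysterol receptor LXR, rose in 8 of 18 cases with a median of 0.43. Abca1, a cholesterol efflux transporter, was between 7.52 and 9.32 (median 9.21) on chow and between 10.38 and 11.09 (median 10.70) in iPgc1α-/- on WD, an increase of 1.79 without overlap. Mylip, an E3 ubiquitin ligase gene, rose by 1.25, and the apical sterol exporter genes Abcg8 and Abcg5 rose by 1.21 and 0.66, the latter not past the fold limit without chow replicate 4 (0.55). The phospholipid remodelling gene Lpcat3 rose by 0.80. Npc1l1, the apical cholesterol importer, was at 0.33 (adjusted p = 0.0911), and its arrays overlapped, from 14.01 to 14.69 on chow and from 14.46 to 15.22 in iPgc1α-/- on WD. In this list 0 genes were called lower, and 2 were lower at an unadjusted p under 0.05 in limma.

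Bile acid genes split. Fgf15, the ileal hormone that represses hepatic bile acid synthesis, was between 5.60 and 7.68 (median 6.85) on chow and between 8.24 and 10.19 (median 8.49) in iPgc1α-/- on WD. All iPgc1α-/- arrays were higher, by 2.24 on average (standard error 0.444, adjusted p = 0.000678). Abcc2, an apical exporter of conjugates, rose by 1.51. Slc10a2, the apical importer of bile acids, fell by 1.12 with some overlap of the arrays (adjusted p = 0.0124), the basolateral exporter subunit gene Slc51b fell by 1.03, and Nr1h4, which encodes the bile acid receptor FXR, fell by 0.80. The list of 12 held 3 genes higher and 3 lower, with a median of -0.12.

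Peroxisomal and related oxidation genes rose in 12 of 21 cases, with a median of 0.70 and 0 genes lower at an unadjusted p under 0.05 in limma. Cyp4a10, an omega-hydroxylase of fatty acids, lay between 5.08 and 7.54 (median 6.02) on chow and between 9.01 and 10 (median 9.41) in iPgc1α-/- on WD. Every iPgc1α-/- array exceeded every chow array, and the change was 3.20 (standard error 0.363, adjusted p = 2.35e-06), with 1.59 in the diet step and 1.61 in the genotype step. The latter did not pass the test at this probe (adjusted p = 0.0894) and did at a second Cyp4a10 probe (1.37, adjusted p = 0.0319). Its relative Cyp4a31 rose by 3.10, and since the Cyp4a genes are close copies of each other their probes may share transcripts. Acox2, a peroxisomal oxidase of branched chains, rose by 2.38 and Cat, the catalase gene, by 1.31. Mitochondrial fatty acid oxidation changed in few genes. There 4 of 28 rose and 1 fell, with a median of 0.14, and 2 rose without replicate 2 or without replicate 6 of iPgc1α-/- on WD. Pdk4, the kinase that shuts pyruvate dehydrogenase, was between 7.74 and 9.91 (median 8.44) on chow and between 10.53 and 11.63 (median 11.09) in iPgc1α-/- on WD, a rise of 2.54 without overlap. Ppara, which encodes the fatty acid receptor PPARα, rose by 1.70 and the uncoupling protein gene Ucp2 by 0.66. Cpt1a, Cpt1b and Acadm, which carry fatty acids into and through mitochondrial oxidation, were at -0.03, 0.42 and 0.18 and were not called.

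Enzymes that modify drugs, retinoids and other foreign or lipid-like compounds rose in 31 of 51 cases with a median of 0.67. In this list 0 genes were called lower, and 1 was lower at an unadjusted p under 0.05 in limma. Cyp2a12, a cytochrome P450, was not well above background on any chow array and was well above it on all 6 iPgc1α-/- arrays, and it was at least 5.48-fold higher there. Cyp2j6, a P450 that epoxidises fatty acids, was between 8.68 and 9.57 (median 9.54) on chow and between 10.97 and 11.88 (median 11.68) in iPgc1α-/- on WD. The groups were apart by 2.27 on average (standard error 0.162, adjusted p = 6.97e-09). The alcohol dehydrogenase gene Adh1 rose by 2.20 and the retinal dehydrogenase gene Aldh1a1 by 1.95. Members of these families are similar in sequence, so probes of close relatives may share signal.

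Brush-border digestion and nutrient transport rose in 11 of 30 genes and 1 was called lower, with a median of 0.37. Ace, a brush-border peptidase, was between 11.43 and 12.46 (median 12.02) on chow and between 13.59 and 15.09 (median 13.91) in iPgc1α-/- on WD. No arrays overlapped, and Ace rose by 2.19 (standard error 0.237, adjusted p = 1.46e-06). The proline carrier gene Slc6a20a rose by 1.58, the trehalase gene Treh by 1.48 and Cubn, part of the ileal receptor for vitamin B12, by 1.47. Leaving out chow replicate 4 also gave 11 higher and 1 lower. Iron, zinc and metallothionein genes went both ways, with 3 of 18 higher and 4 lower. Mt1, a metallothionein that binds zinc and copper, rose by 1.58 at its bright probe, the iron exporter gene Slc40a1 fell by 1.28 and the zinc exporter gene Slc30a1 fell by 0.95.

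The circadian clock list held 11 genes of 18 that rose and 3 that fell, with a median of 0.98. Dbp, an output factor of the clock that binds D-box elements, was between 8.46 and 11.69 (median 9.85) on chow and between 13.36 and 14.27 (median 14.04) in iPgc1α-/- on WD. Its groups did not overlap, and it rose by 4.02 (standard error 0.331, adjusted p = 4.55e-08), with a diet step of 3.51 and a genotype step of 0.51 (adjusted p = 0.637 for the latter). Per3, a repressor of the clock, was between 6.84 and 8.45 (median 7.60) on chow and between 9.71 and 10.48 (median 9.82) in iPgc1α-/- on WD, a rise of 2.31 without overlap. Tef, a relative of Dbp, rose by 1.75 and the repressor Per2 by 1.60. Those that fell were Arntl, the core activator BMAL1 (by 1.09), Nfil3, which competes with Dbp at its sites (by 1.22), and Rora, an activator of Arntl (by 1.26). The 250 bases before the gene start of Per3 and Ciart, from RefSeq on GRCm38.p6, are shown because they hold the elements that clock factors are known to bind. Capitals mark TTATGTAA, a D-box, in Per3, and CACGTG, an E-box, in Ciart, whose product represses the clock and whose signal rose by 1.29:
Per3 promoter, chr4:151044666-151044915, minus strand: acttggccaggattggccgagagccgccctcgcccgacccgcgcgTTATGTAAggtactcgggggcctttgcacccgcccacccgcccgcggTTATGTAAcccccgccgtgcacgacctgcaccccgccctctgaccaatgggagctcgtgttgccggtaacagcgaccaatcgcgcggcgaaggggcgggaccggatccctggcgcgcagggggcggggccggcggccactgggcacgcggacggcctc
Ciart promoter, chr3:95882229-95882478, minus strand: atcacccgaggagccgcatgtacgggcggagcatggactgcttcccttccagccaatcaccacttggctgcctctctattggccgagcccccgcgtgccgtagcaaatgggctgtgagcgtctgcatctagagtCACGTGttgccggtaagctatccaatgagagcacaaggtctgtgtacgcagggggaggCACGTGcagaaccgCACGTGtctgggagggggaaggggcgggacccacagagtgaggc
Promoters (250 bases before to 50 after the start) were found for 15 of the 18 clock genes and searched on both strands. CACGTG was in 4 of the 15 (26.7%), beside 8.09% of 27025 genes, and TTATGTAA in 1 of 15 (6.67%), beside 1.11%. Of the 4 with CACGTG, 3 rose, and of the 11 without it 6 rose and 3 fell.

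Genes that the epithelium is known to induce on contact with the microbiota fell in 18 of 26 cases, with a median of -1.18. Saa2, an acute-phase serum amyloid A, was between 11.80 and 13.90 (median 13.11) on chow and between 6.88 and 9.67 (median 7.58) in iPgc1α-/- on WD. Saa1 was between 11.67 and 13.72 (median 12.81) on chow and between 7.65 and 9.55 (median 7.98) in iPgc1α-/- on WD. Neither gene had overlapping arrays. Saa2 fell by 5.21 (standard error 0.407, adjusted p = 2.51e-08). Saa1 fell by 4.58, with a standard error of 0.314 and an adjusted p of 4.24e-09. The diet steps alone were -5.91 and -4.92. The Saa1 probe is shown, on mm9 with the stop codon in capitals, because Saa1 and Saa2 are near copies and their probes may share transcripts:
Saa1 probe, chr7:53996070-53996129, minus strand: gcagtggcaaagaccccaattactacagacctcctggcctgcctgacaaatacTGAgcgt
Its frame runs through 17 sense codons to the stop, with 4 bases after it. Ubd, a ubiquitin-like protein of inflamed epithelium, was between 9.02 and 13.09 (median 11.78) on chow and between 5.97 and 8.63 (median 6.73) in iPgc1α-/- on WD. These arrays did not overlap either, and Ubd fell by 4.44 (standard error 0.532, adjusted p = 4.35e-06). The nucleic acid sensor gene Zbp1 fell by 2.49, the nitric oxide synthase gene Nos2 fell by 2.23 and the antimicrobial lectin gene Reg3g fell by 2.05. Its relative Reg3a was the gene of this list that rose, by 1.50 and without overlap (adjusted p = 0.000108).

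Interferon-induced and antigen-processing genes fell in 31 of 47 cases, with a median of -0.92 and 0 genes higher at an unadjusted p under 0.05 in limma. Nlrc5, the transactivator of MHC class I genes, was between 7.79 and 10.06 (median 8.85) on chow and between 5.89 and 6.49 (median 6.28) in iPgc1α-/- on WD. It fell by 2.66 without overlap (standard error 0.326, adjusted p = 5.71e-06). Igtp, an immunity-related GTPase, was between 9.33 and 11.86 (median 10.93) on chow and between 7.85 and 9.01 (median 8.38) in iPgc1α-/- on WD, without overlap, and fell by 2.40 (adjusted p = 0.00029). The related GTPase genes Irgm2 and Gbp2 fell by 2.10 and 1.86. MHC class II genes, which present peptides to CD4 T cells, fell in 9 of 11 cases with a median of -1.42. H2-Aa, the alpha chain of I-A, was between 11.64 and 13.19 (median 12.75) on chow and between 9.57 and 11 (median 10.38) in iPgc1α-/- on WD. It fell by 2.36 with no overlap (standard error 0.298, adjusted p = 8.16e-06), and the class II transactivator gene Ciita fell by 1.73, the peptide-loading gene H2-DMb1 fell by 1.76 and H2-Eb1, the beta chain of I-E, fell by 1.54. The genotype steps of these 4 class II genes were -0.64, -0.57, -0.60 and -0.57 and did not pass the test (adjusted p from 0.486 to 0.558).

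The 250 bases before the start of Igtp, Irgm2 and Gbp2, from RefSeq on GRCm38.p6, are shown because each holds GAAA and, after 2 bases of any kind, GAAA again (capitals, on either strand), the core of the element that interferon regulatory factors are known to bind:
Igtp promoter, chr11:58199306-58199555, plus strand: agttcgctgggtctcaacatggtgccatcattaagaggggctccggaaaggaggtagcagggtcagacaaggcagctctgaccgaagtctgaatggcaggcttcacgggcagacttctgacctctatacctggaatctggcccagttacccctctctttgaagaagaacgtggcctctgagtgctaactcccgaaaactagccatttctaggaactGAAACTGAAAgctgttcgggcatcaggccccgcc
Irgm2 promoter, chr11:58214727-58214976, plus strand: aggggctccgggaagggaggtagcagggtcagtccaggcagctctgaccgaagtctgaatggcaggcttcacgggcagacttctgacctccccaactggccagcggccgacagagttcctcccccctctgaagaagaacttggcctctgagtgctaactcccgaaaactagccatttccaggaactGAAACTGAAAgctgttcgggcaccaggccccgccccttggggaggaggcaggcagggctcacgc
Gbp2 promoter, chr3:142620413-142620662, plus strand: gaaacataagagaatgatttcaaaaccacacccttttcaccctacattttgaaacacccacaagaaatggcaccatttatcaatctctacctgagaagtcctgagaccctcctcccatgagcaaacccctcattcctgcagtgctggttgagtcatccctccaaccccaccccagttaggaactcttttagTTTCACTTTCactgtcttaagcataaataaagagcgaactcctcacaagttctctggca
The match begins 34, 64 and 59 bases before the start, and in Gbp2 it is on the opposite strand. Promoters of 34 of the 47 genes were found, of which 20 held the motif (58.8%), beside 3.99% of 27025 genes. Of the 20, 13 were called lower, and of the 14 without it 8 were. For peroxisomal genes, 2 copies of AGGTCA spaced by 1 base, the element of PPARα, were in 0 of 15 promoters (0.0481% of all genes). These letters were thus not in those windows.

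**Figure D3:**
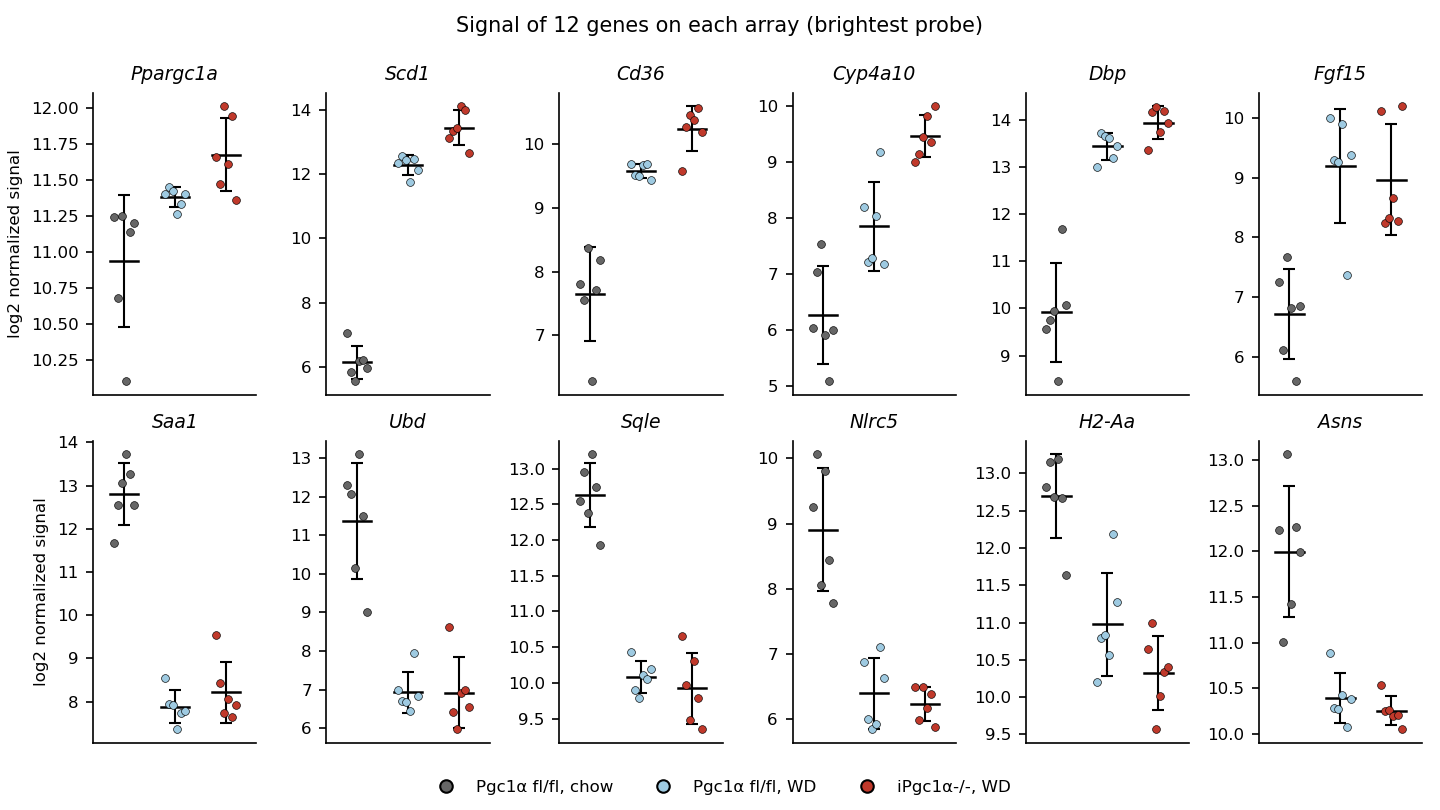
Log2 normalised signal of the brightest probe of 12 genes on each array, with Pgc1α fl/fl on chow in grey, Pgc1α fl/fl on WD in light blue and iPgc1α-/- on WD in red; lines and bars are the mean and SD of 6 arrays, and each y axis has its own range and does not begin at 0. In all 12 genes the red and grey points do not overlap.

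Lymphocyte markers moved with these immune lists. Of 20 markers of T cells and intraepithelial lymphocytes, 15 fell and 1 rose, with a median of -1.35, and their mean level was 9 to 10.17 on chow and 8.34 to 9.05 in iPgc1α-/- on WD. Cd8b1, a coreceptor chain of cytotoxic T cells, fell by 1.94, and Gzma, a granzyme of the same cells, fell by 1.81. Cd4 rose by 0.86, a call lost with its probes averaged, and the T cell receptor component Cd3e was at -0.50, under the fold limit. B cell markers were called lower in 9 of 12 cases (mean level 6.58 to 8.19 on chow and 6.04 to 6.87 in iPgc1α-/- on WD). With probes kept only where all 18 arrays were well above background, 2 B cell markers were called lower. Plasma cell markers fell in 6 of 9 cases, led by the immunoglobulin joining chain gene Jchain (-2.28), and their mean level went from 8.09 to 8.97 on chow to between 7.2 and 7.66. That filter left 3 plasma cell markers called lower, with a median of -0.82 in place of -1.14. In this bulk RNA, fewer cells of a type and less RNA per cell cannot be told apart, and the part of lymphocyte markers in the fall of MHC class II and interferon genes was not tested. Macrophage and dendritic cell markers were called in 2 of 13 cases, Cd14 and Itgax, both lower, with a mean level of 8.03 to 8.22 on chow and 7.67 to 8.05 in iPgc1α-/- on WD.

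Among epithelial lineages, goblet cell markers fell in 5 of 10 cases with a median of -0.60, led by Agr2, a secretory chaperone (-0.86), and including Muc2, the main intestinal mucin (-0.62). Without replicate 2 or without replicate 6 of iPgc1α-/- on WD, 3 were called. Their mean level was 13.35 to 13.73 on chow and 12.62 to 13.25 in iPgc1α-/- on WD. Paneth cell markers were called lower in 2 of 10 cases (20%), crypt stem cell markers in 3 of 12 (25%) and tuft cell markers in 1 of 9 (11.1%). Of all genes, 7.57% were called lower. Under alternatives that kept the fold limit and all slides, the Paneth count ran from 1 to 3 and the crypt count from 1 to 5. Enteroendocrine markers went both ways, with Pyy, Pax6 and Nts higher and Chga lower. Of the 15 epithelial markers, Alpi, the intestinal alkaline phosphatase, was the gene called, and it rose by 1.13. In endothelium, smooth muscle and enteric nerve, exocrine pancreas and erythroid lists 0 of 5, 12, 5 and 4 measured genes were called, and 3, 1, 1 and 0 had an unadjusted p under 0.05 in limma. Of 5 hepatocyte markers, Cyp2e1 and Trf were called higher (1.24 and 0.81), and the list mean was 8.72 to 9.20 on chow and 9.33 to 9.59 in iPgc1α-/- on WD, without overlap. Of 10 neutrophil and mast cell markers, the mast cell protease genes Mcpt1 and Mcpt4 were called lower (-1.85 and -1.74), and the list mean was 7.41 to 7.69 and 7 to 7.30, also without overlap. Thy1 was the 1 of 7 fibroblast and stroma markers called, lower at -0.91, and 0 of 7 adipocyte markers were called, with 3 higher at an unadjusted p under 0.05 in limma. The defining markers Cdh5 and Kdr of endothelium, Col1a1 and Pdgfra of fibroblasts, Alb of hepatocytes and Adipoq of adipocytes did not pass the filter on dim probes.

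**Figure D4:**
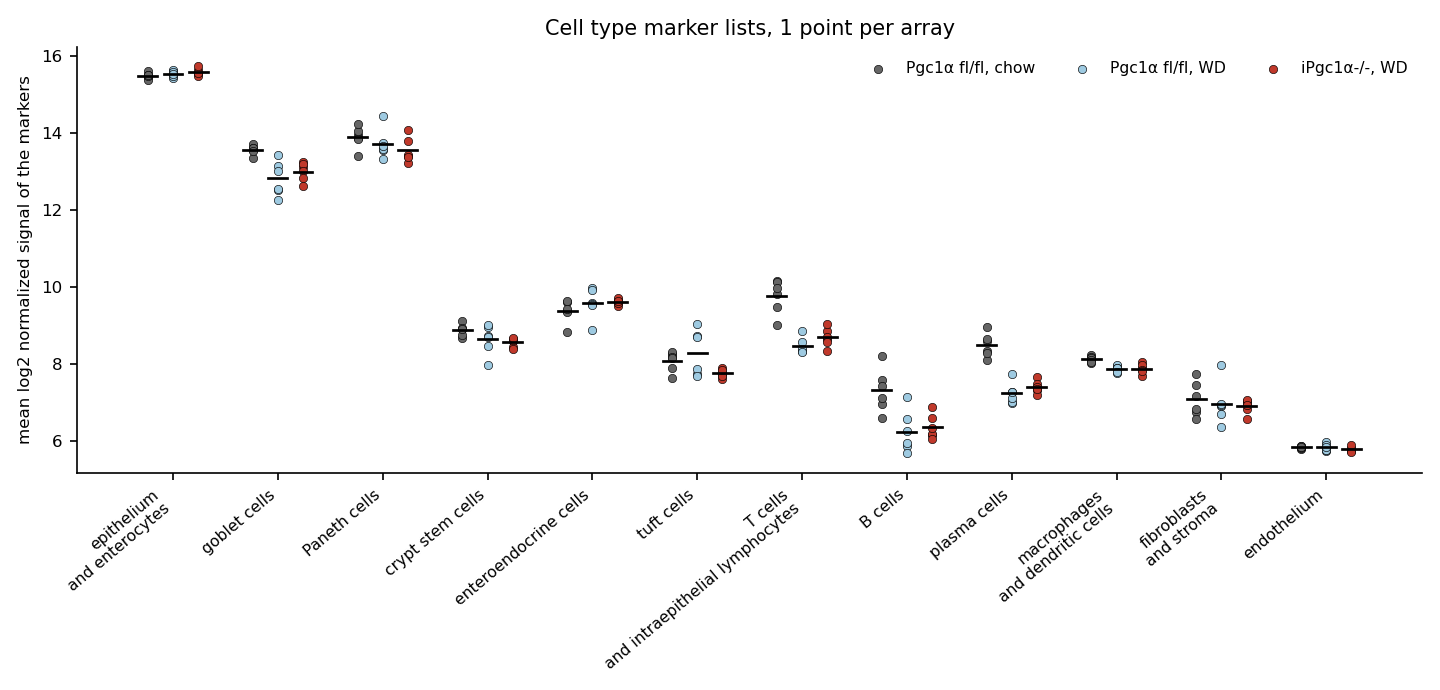
Mean log2 normalised signal of the measured markers of each cell type, with 1 point per array (grey Pgc1α fl/fl on chow, light blue Pgc1α fl/fl on WD, red iPgc1α-/- on WD) and a line at the mean of 6 arrays; the y axis does not begin at 0, and heights are not comparable between cell types. The plasma cell and goblet cell means of iPgc1α-/- on WD lie below those on chow without overlap, and the T cell means overlap slightly, from 8.34 to 9.05 against 9 to 10.17.

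Few mitochondrial genes, the best known targets of Pgc1α, passed both the adjusted p and the fold limit in this contrast. Of 76 genes of the respiratory chain and ATP synthase, 0 were called in limma, while 33 were lower and 1 higher at an unadjusted p under 0.05. At an adjusted p of at most 0.05 without the fold limit, 25 were lower and 0 higher. The shares of all genes there were 20% lower and 16.8% higher. The median of the list was -0.14, beside 0.06 in the diet step and -0.19 in the genotype step, and no scaling turned its sign. The member with the largest difference, Ndufc2, a subunit of complex I, was between 13.32 and 13.63 (median 13.46) on chow and between 12.79 and 13.12 (median 13.03) in iPgc1α-/- on WD. The log2 difference was -0.47 (standard error 0.0696, adjusted p = 4.76e-05), without overlap and under the fold limit. Its diet step was -0.13 and its genotype step -0.34 (adjusted p = 0.0488 for the latter). Cox5a of complex IV and Atp5b of the ATP synthase were at -0.35 and -0.15. The citric acid cycle also had 0 of 22 genes called in limma, with 10 lower and 4 higher at an unadjusted p under 0.05, where the shares of all genes were those given above. At an adjusted p of at most 0.05 without the fold limit, 10 were lower and 3 higher. Dlat and Pdhb, of the pyruvate dehydrogenase complex, were at -0.56 and -0.48, and Ogdh, of the oxoglutarate dehydrogenase complex, at 0.41.

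In the list of Pgc1 coactivators and mitochondrial biogenesis, 3 of 31 genes rose and 1 fell, with a median of -0.16. Besides Ppargc1a and Cat, Polg2, an accessory subunit of the mitochondrial DNA polymerase, rose by 0.59, which lies at the fold limit. The coactivator gene Ppargc1b was between 10.03 and 11.03 (median 10.50) on chow and between 9.55 and 9.99 (median 9.84) in iPgc1α-/- on WD. It fell by 0.70 without overlap (standard error 0.14, adjusted p = 0.000707), and with its probes averaged by 0.58, under the fold limit. Cycs, cytochrome c, was at -0.57 and Tfam, the mitochondrial transcription factor, at -0.26, and neither was called. Mitochondrial ribosomal proteins had 2 of 78 genes called lower, Mrps5 (-0.89) and Mrpl47 (-0.63), with a median of -0.25. At an unadjusted p under 0.05, 49 of the 78 were lower and 2 higher. At an adjusted p of at most 0.05 in limma, without the fold limit, 43 were lower and 2 higher.

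Some genes of growth and protein synthesis fell, where 7.57% of all genes were called lower. Ribosome biogenesis fell in 14 of 53 genes (26.4%) with a median of -0.43. Nhp2, a small nucleolar ribonucleoprotein component, was between 12.21 and 12.96 (median 12.53) on chow and between 11.35 and 11.88 (median 11.75) in iPgc1α-/- on WD, and fell by 0.84 without overlap. The nucleolar genes Rrp1b, Noc4l and Nolc1 fell by 0.81, 0.67 and 0.66. Rrp1b was called at 1 of 4 probes and was at -0.36, not called, with its probes averaged. Without chow replicate 4, Noc4l and Nolc1 were under the fold limit (-0.53 and -0.57) and 4 genes of the list were called. Without chow replicate 6, and likewise without replicate 6 of iPgc1α-/- on WD, 9 were called. Among 53 translation factors and tRNA synthetases 6 fell (11.3%, and 3 genes with probes averaged), near the share of all genes. The largest falls there were in Eif4ebp1, a repressor of cap-dependent translation (by 0.94), and Wars, the tryptophanyl-tRNA synthetase (by 0.85). Cytosolic ribosomal proteins had 2 of 83 called lower (2.41%), below the share of all genes, with a median of -0.17. In DNA replication and mitosis 9 of 35 genes fell with a median of -0.48, led by Rrm2, the small subunit of ribonucleotide reductase (-0.86), Birc5, an inhibitor of apoptosis that acts in mitosis (-0.83), and the mitotic cyclin gene Ccnb1 (-0.82). The count was 7 without chow replicate 4, 14 to 16 without chow replicate 1, 2, 3 or 6, and 16 and 17 without replicates 2 and 5 of iPgc1α-/- on WD.

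Of 34 genes of the unfolded protein and integrated stress response, 3 fell (8.82%) and 1 rose (2.94%), with a median of -0.14. Over all genes the shares were 7.57% and 5.77%, so the share that fell was near that of all genes. Asns, the asparagine synthetase, was between 11.01 and 13.06 (median 12.11) on chow and between 10.05 and 10.54 (median 10.23) in iPgc1α-/- on WD. Its arrays did not overlap, and it fell by 1.74 (standard error 0.231, adjusted p = 1.36e-05). Chac1, which degrades glutathione, fell by 1.83 and Psat1, of serine synthesis, fell by 1.40. These 3 are known targets of the factor ATF4, whose own gene Atf4 was at -0.11, and the chaperone gene Hspa5 was at -0.18. The 3 were named for the size of their change, so their shared factor says nothing of the list as a whole. Herpud1, of the degradation of endoplasmic reticulum proteins, rose by 0.63. Autophagy genes rose in 8 of 52 cases with a median of 0.19 and 0 called lower, where 2 were lower at an unadjusted p under 0.05 in limma. Bnip3, a receptor for the removal of mitochondria, was between 9.51 and 10.17 (median 9.64) on chow and between 11.10 and 11.80 (median 11.30) in iPgc1α-/- on WD, a rise of 1.60 without overlap. Gabarapl1, of the autophagosome membrane, rose by 0.78, Pink1, a kinase on damaged mitochondria, by 0.71 and Ulk2, an initiating kinase, by 0.61. Without chow replicate 4, and likewise without replicate 5 or 6 of iPgc1α-/- on WD, 5 autophagy genes rose.

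Of 15 tight junction genes, 1 was called higher, Cldn15, which forms sodium pores (0.73), and 1 lower, Cldn2, another pore-forming claudin (-0.76). Tjp1 and Ocln, a scaffold and a strand protein of the junction, were at 0.29 and 0.04 and were not called. Of the 23 genes that the study itself measured in the intestine, 11 rose and 1 fell, with a median of 0.34. The study chose them with these mice in view, so they are not independent evidence of direction.

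Outside the lists, the highest rises and falls without overlap included transporters and cell-surface proteins. Otop2, a proton channel, was between 6.03 and 6.48 (median 6.18) on chow and between 10.37 and 11.16 (median 10.69) in iPgc1α-/- on WD. The groups were thus far apart, by 4.51 or 22.7-fold (standard error 0.166, adjusted p = 4.43e-13). Slc6a3, the dopamine transporter, rose by 3.32, the nucleoside transporter gene Slc28a1 by 2.81, the sugar carrier family gene Slc5a4b by 2.77, the tetraspanin-like Tm4sf4 by 2.72 and the retinol saturase gene Retsat by 2.62. Wfdc21, of the whey acidic protein family, rose by 2.80. Ceacam10, a carcinoembryonic antigen relative, was between 8.66 and 9.69 (median 9.07) on chow and between 5.07 and 5.85 (median 5.57) in iPgc1α-/- on WD. It fell by 3.58 (standard error 0.198, adjusted p = 3.42e-10). Gml, of the Ly6 family, fell by 3.48 and was well above background on 3 of 6 iPgc1α-/- arrays, the T cell surface receptor gene Cd6 fell by 2.79, the phospholipase gene Pla2g5 fell by 2.72 and Ly6d fell by 2.51. The glycosyltransferase genes B3galt5 and Gcnt1 both fell by 2.64. Mfi2, melanotransferrin, was not well above background on any iPgc1α-/- array and was at least 5.2-fold lower there.

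The genotype step of the same fit shows which of these differences separated iPgc1α-/- from Pgc1α fl/fl mice on the same diet. It called 35 genes (0.162% of 21542), 19 higher and 16 lower, and in 22 of them all 6 iPgc1α-/- arrays were apart from all 12 Pgc1α fl/fl arrays. The genes and their probes were picked for their difference between the WD groups, so the count of 22 is partly set by that choice. The share of all genes apart in this way was not counted. With replicates 2 and 3 of Pgc1α fl/fl on WD averaged, 26 genes were called in the genotype step. The number called was 17 at an adjusted p of at most 0.01, 12 above 2-fold, and 3, 71 and 1 within slides 1, 2 and 3. Nnt, the mitochondrial transhydrogenase that makes NADPH, was between 9.55 and 10.02 (median 9.93) in Pgc1α fl/fl on chow, between 9.68 and 10.26 (median 9.98) in Pgc1α fl/fl on WD and between 11.32 and 11.60 (median 11.43) in iPgc1α-/- on WD. The floxed groups overlapped and the iPgc1α-/- arrays were above both. The change against chow was 1.60 (adjusted p = 2.23e-09), with a diet step of 0.12 (adjusted p = 0.444) and a genotype step of 1.48 (standard error 0.103, adjusted p = 1.54e-07). Of the other probes of Nnt, one had a genotype step of 0.61 (adjusted p = 0.00528) and one of 0.06.

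Other genes differed in how the steps added up. At the dimmer probe of Mt1, chow arrays were between 6.62 and 7.67 (median 6.82), Pgc1α fl/fl arrays on WD between 7.40 and 8.62 (median 7.82) and iPgc1α-/- arrays between 10.46 and 10.99 (median 10.79), a change of 3.79 with a genotype step of 2.76 (adjusted p = 2.12e-07). At its bright probe the genotype step was 1.31 (adjusted p = 0.0849), so the probes of Mt1 differ. Sardh, the sarcosine dehydrogenase of mitochondria, rose by 3.16 in all, with a diet step of 1.90 and a genotype step of 1.27 (adjusted p = 0.000579). Cyp2a12 was well above background on 0 of 6 chow arrays, 2 of 6 arrays of Pgc1α fl/fl on WD and 6 of 6 arrays of iPgc1α-/- on WD, so its steps are not given. Tymp, the thymidine phosphorylase, and Sco2, a copper chaperone of complex IV, rose by 1.73 and 1.64 against chow, with genotype steps of 1.05 and 0.95, and as their probes lie side by side on chromosome 15 where the genes overlap, their signals cannot be told apart. Got1, the cytosolic aspartate aminotransferase, showed opposite steps. It was between 12.06 and 12.57 (median 12.29) on chow, between 12.57 and 13.25 (median 12.75) in Pgc1α fl/fl on WD and between 11.60 and 12.02 (median 11.79) in iPgc1α-/- on WD, with a diet step of 0.51 and a genotype step of -1.01 (adjusted p = 0.000179), and its combined change of -0.50 was under the fold limit.

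Of these 35 genes 4 were on chromosome 5, where Ppargc1a lies and where 6.18% of the measured genes are. Apbb2, Limch1, Bend4 and Atp8a1 all rose in the genotype step, by 1.63, 0.70, 1 and 0.71, and lay within 1.22 Mb of each other, 14.9 Mb from the Ppargc1a probe. The probe of Apbb2 (chr5:66790941-66791000, mm9, minus strand) was between 5.65 and 6.07 (median 5.84) on chow, between 5.65 and 5.92 (median 5.86) in Pgc1α fl/fl on WD and between 6.89 and 7.94 (median 7.42) in iPgc1α-/- on WD. It was 1 of 4 Apbb2 probes, and the brightest was at 0.18 in the genotype step. The called Limch1 probe was dim, with means of 4.45 on chow, 4.67 in Pgc1α fl/fl on WD and 5.37 in iPgc1α-/- on WD. The other Limch1 probe was at 0.03 in the genotype step (limma adjusted p = 0.935). The Bend4 probe was also dim, with means of 5.01, 5.11 and 6.11 in the same order of groups. The window held 8 measured genes and 13 probes, of which 4 genes and 4 probes were called. Its edges are the called probes of Apbb2 and Atp8a1, so these counts depend on the calls. The brightest Apbb2 probe lies outside it. Atp8a1 had a diet step of -0.49 and was at 0.22 against chow, where it was not called.

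**Figure D5:**
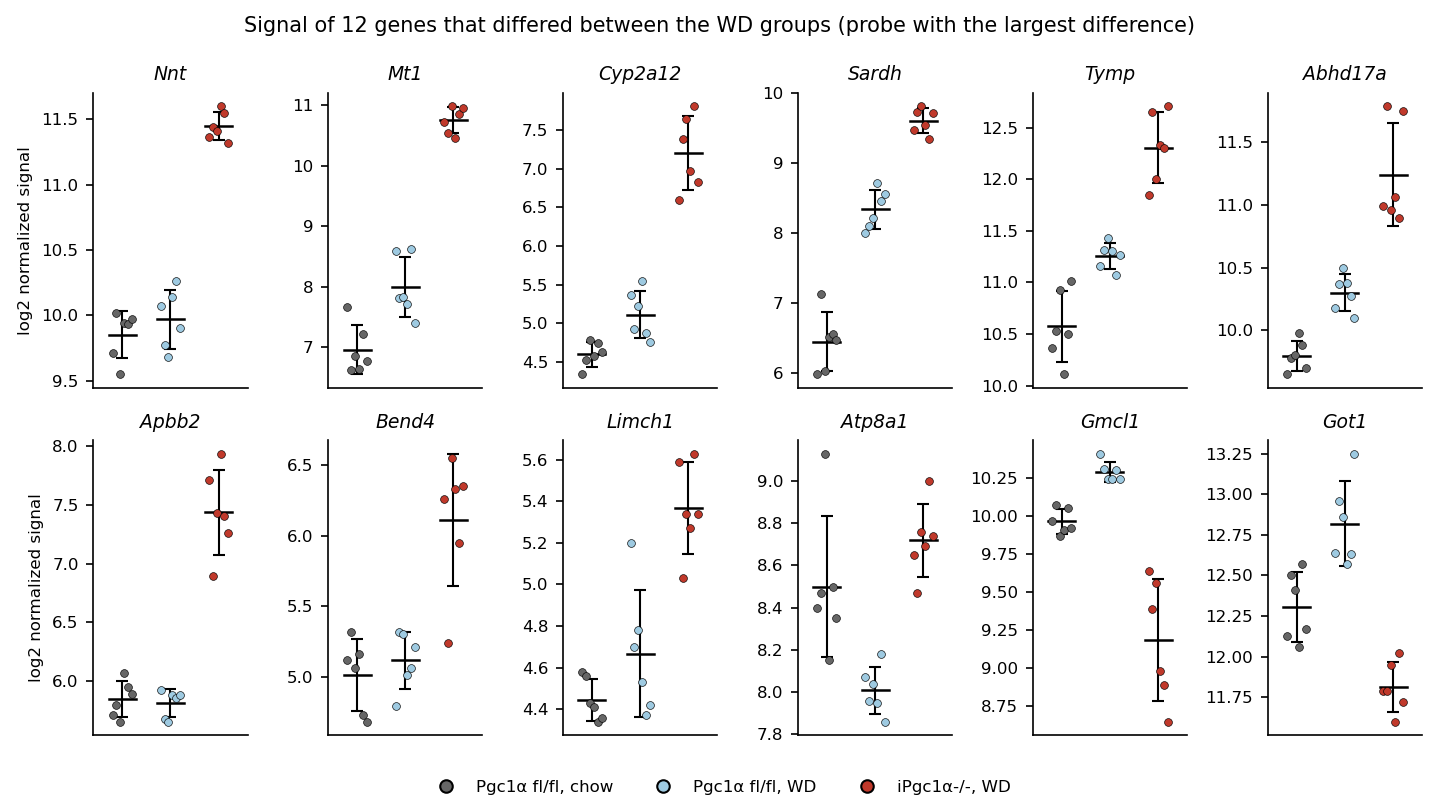
Log2 normalised signal on each array for 12 genes called between iPgc1α-/- and Pgc1α fl/fl on WD, at the probe with the largest such difference (grey Pgc1α fl/fl on chow, light blue Pgc1α fl/fl on WD, red iPgc1α-/- on WD); lines and bars are the mean and SD of 6 arrays, and the y axes do not begin at 0. In Nnt the grey and light blue points overlap and the red points lie above 11.3, whereas in Got1 the red points lie below both other groups.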

How the data were processed

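RNA of ileal cells from 18 mice was hybridised to one-colour Agilent mouse arrays, 1 mouse per array, with 2 arrays of each group on each of 3 slides. The authors deposited the median Cy3 intensity of each spot as scanner output, not normalised, with probe positions on mm9. A second deposited table holds the authors' log2 values, normalised by smooth quantiles and corrected for washing bath and labelling series, and was used as an alternative. Those 2 batches are not named in the labels, and their correction was not repeated, so the part of these batches in the results was not tested.

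From the intensities, control spots and outlier spots were left out, log2 was taken, and spots of a probe were averaged. A probe was then kept when 5 or more of the 6 arrays of some group had it well above background (32726 of 56605). Arrays were smooth-quantile normalised by group (window 0.05), and limma 3.58.1 in R 4.3.3 was fitted to all 3 groups, with Benjamini-Hochberg adjustment over 32726 probes. In simulated data with 200 changed probes of 32638, 74.6%, 98.5% and 100% of those changed by 0.75, 1 and 2 on the log2 scale were recovered. The other simulated probes had no change and independent normal noise, and 3 of them were called. In the data 3432 probes were called, so these rates describe a setting with far fewer changes than the present contrast. "At least N-fold" compares the brighter group with the higher of the dim probe's own signal and the lowest signal among probes well above background on each array. Promoters and updated names came from RefSeq, where 15044 gene names matched a symbol and 731 a synonym.

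Genes were named as the targeted gene, the 15 genes with the largest change in each direction without overlap, the 4 most changed members of each list, the 10 genes that differed most between the WD groups and the genes the study measured, and others completing a pathway or cell type were named after their values were seen. The members, lists and tests were chosen with earlier results of these data known. Alternatives covered the signal column, background correction, normalisation, filters, thresholds, probe averaging, the slide and each array left out. The averaging of replicates 2 and 3 of Pgc1α fl/fl on WD was chosen after seeing the data. Some genes are not reported here.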

Additional observations from a re-analysis of the deposited data

Results flagged for a closer look

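In each group of 6 arrays, the gap between the most extreme array and its nearest neighbour was divided by the range of the group, and 21 of 270 sets of values exceeded Dixon's critical value for 6 samples. Chance flags about 1 in 20 such sets. Of the 21, 8 concerned chow replicate 4, in which Abca1 (0.922), Abcg5 (0.723), Adh1 (0.661), Apoa4 (0.658), Fabp1 (0.668), Mylip (0.684) and Pink1 (0.638) were lowest and Ndufa12 (0.789) was highest. In the other chow arrays, Cdkal1 of replicate 2 (0.775) and H2-Aa of replicate 6 (0.665) stood apart. In iPgc1α-/- on WD, the gaps were 0.626 for Cd36 and 0.648 for Cyp2j6 in replicate 1. In replicate 2 they were 0.681 for AK206655, 0.9 for Cubn, 0.661 for Noc4l and 0.686 for Tjp1. Wfdc21 in replicate 3 had a gap of 0.676. Replicate 6 had gaps of 0.702 for Ccnb1, 0.655 for Cldn4, 0.66 for Nhp2 and 0.724 for Rpsa.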

How the results depend on the processing

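The 1243 genes higher and 1631 lower became 4222 and 4855 with no fold limit and 410 and 493 above 2-fold. Background-subtracted signals gave 1786 higher and 2709 lower, which also moved the split between directions. Within single slides, each with 2 arrays per group, 1237, 719 and 419 genes were higher and 1568, 1042 and 643 lower in slides 1, 2 and 3. Leaving out each array in turn gave 1105 to 1436 higher and 1457 to 1902 lower. The difference in Ppargc1a was 0.46 (limma adjusted p = 0.152), 0.31 (0.252) and 1.44 (0.015) within slides 1, 2 and 3, and 0.57 to 0.80 with each array left out, the lowest without chow replicate 4. No named gene that was called in the main or the alternative setting reversed its direction. Sign changes of genes called in neither were not counted. Among named genes, single slides were run for Ppargc1a only. List medians near 0 changed sign for tight junctions (0.03 to -0.02 without replicate 5 or 6 of iPgc1α-/- on WD), fibroblasts and stroma (-0.11 to 0.01 and 0.02 without chow replicates 2 and 6) and erythroid cells (0.13 to -0.24 without replicate 3 of iPgc1α-/- on WD and to -0.05 without chow replicate 5). Counts of 3 or fewer genes in a list moved by at most 2 genes when single arrays were left out. Of the single-gene values under these alternatives, 3302 kept their status as called or not called, 28 lost a call and 16 gained one. The replicate numbers did not pair the samples (correlations of deviations from -0.217 to 0.346), and with replicate number as a block 1245 genes were higher, 1664 lower and Ppargc1a was at 0.74. The 6 mice per group limit the precision, and dim probes near background are the least certain.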
